A study of Mus musculus with 32 samples.

Results

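The diet by time interaction under Fc-GLP-1 is the difference between 2 changes in liver mRNA, the change after partial hepatectomy (PH) in M+Fc-GLP-1 mice and the same change in C+Fc-GLP-1 mice. It addresses whether treated livers changed after PH in the same way on both diets. The arrays were chosen by their labels and are the 16 arrays of Fc-GLP-1-treated mice out of 32 in the series, with 4 arrays in each of the 4 groups: C+Fc-GLP-1 before PH, C+Fc-GLP-1 after PH, M+Fc-GLP-1 before PH and M+Fc-GLP-1 after PH. A positive interaction means that a gene rose more, or fell less, after PH on the MCD diet than on chow.

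All animals were male C57/BL6 mice, 8 weeks old at the start by the study's methods. C+Fc-GLP-1 mice ate standard chow and M+Fc-GLP-1 mice ate a methionine and choline-deficient (MCD) diet, which gives a fatty, inflamed liver without obesity. At PH the diet had been given for 3 weeks and the drug for the last 2. PH removed 70% of the liver, and diet and drug went on until the mice were killed 2 weeks later, so the livers after PH are those of mice that lived through surgery. The methods describe Fc-GLP-1 as a long-acting agonist of the GLP-1 receptor fused to an antibody Fc part and injected under the skin, whereas other labels name a dual agonist that also acts on the glucagon receptor, a conflict that the arrays do not settle. The descriptions of all 16 samples name a dual agonist. The source labels name Fc-GLP-1 in all 4 groups, but for C+Fc-GLP-1 after PH alone they add a dual agonist for the weeks after surgery. If the drug of that group differed from the others it would not cancel in the interaction, and drug and interaction cannot be told apart there. The livers before PH were the tissue removed at surgery. The labels do not tie a liver before PH to one after PH, so all livers were treated as separate samples, and p-values measure the spread between these samples.

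Both diets shared a slide before PH and another slide after PH, read on the same scanner and day. An additive difference between these slides therefore cancels in the interaction, whereas within a diet time and slide cannot be told apart. Between 36.2% and 62.1% of the 55681 probes rose well above background on a given array (median over arrays 49.4%), no probe was saturated, and the number of arrays limits the precision. Of the hepatocyte markers, 23 of 23 with a probe were well above background on all 16 arrays, as against 1 of 8 skeletal muscle markers and 2 of 10 gut markers. Levels are log2 signals with the 75th percentile of each array set to 0, so that a level of -1 is 1 log2 unit below it, and they are given as mean ± SD over n = 4 arrays. A limma model over all 8 groups of the series tested 21012 genes, and adjusted p-values are from this model after Benjamini-Hochberg adjustment over all of them, with a threshold of 0.05.

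After PH hepatocytes leave rest, copy their DNA and divide. The cyclin B proteins Ccnb1 and Ccnb2 bind the kinase Cdk1 to start mitosis, and Cdc20 activates the complex that destroys them, which ends it. Their mRNA is made late in the cell cycle from promoters known for repeated CCAAT boxes, bound by NF-Y, and for the cell cycle genes homology region, which reads TTTGAA or else TTTAAA. Bulk liver holds hepatocytes and many other cells, and fewer cells of a type and less RNA per cell cannot be told apart in any result below.

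Only a few genes passed the threshold for the interaction. Of 21012 genes, 20 (0.0952%) were called, 10 of them higher (0.0476%) and 10 lower (0.0476%) in the change of M+Fc-GLP-1 than of C+Fc-GLP-1 mice. At an unadjusted p under 0.05, 820 genes (3.9%) were higher and 1218 (5.8%) lower. The median interaction of all genes was -0.03, with 52.1% of genes negative and 47.9% positive. The split was 10 higher and 2 lower with median centring, 5 and 1 with normexp, 8 and 1 with the authors' values and 5 and 2 without the filter. Leaving out single arrays moved the number of calls. With replicates 1 to 4 left out in turn there were 13, 12, 12 and 7 calls for C+Fc-GLP-1 before PH, 15, 5, 7 and 24 for C+Fc-GLP-1 after PH, 9, 14, 36 and 11 for M+Fc-GLP-1 before PH and 11, 6, 10 and 44 for M+Fc-GLP-1 after PH. Of the 20 called genes, 8 higher and 7 lower ones are named here, and the other 5 were 4 probes without a gene symbol (3.83, -3.44, -3.66 and -3.78 on the log2 scale) and Krt25, a hair keratin with an interaction of 3.35 (adjusted p = 0.0469) that fell outside the rule for naming genes because no treated group had it well above background on all 4 arrays.

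Behind the interaction, 360 genes (1.71%) were called in the change after PH on the MCD diet, 173 higher (0.823%) and 187 lower (0.89%), and 176 (0.838%) on chow, 101 higher (0.481%) and 75 lower (0.357%). Centring on the array median instead gave 167 higher and 88 lower on the MCD diet and 53 higher and 91 lower on chow. The direction of these changes depended on the processing. Without the filter 187 genes were higher and 731 lower on the MCD diet and 147 higher and 558 lower on chow. The authors' values gave 7146 higher and 53 lower on the MCD diet and 8009 higher and 43 lower on chow, around medians of all genes of 0.47 and 0.49, and normexp gave 265 higher and 341 lower on the MCD diet and 381 higher and 936 lower on chow. Between diets, 2175 genes (10.4%) were called before PH, 1121 higher (5.34%) and 1054 lower (5.02%) on MCD, or 611 and 1894 with the arrays centred on the median. After PH 2692 (12.8%) were called, 1301 higher (6.19%) and 1391 lower (6.62%). These 4 comparisons and the interaction share arrays, so their values are given side by side and are not separate evidence.

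The named genes with a negative interaction were led by mitotic genes. Ccnb1, Cdc20 and Ccnb2 rose after PH on chow and had mean changes of the opposite sign on the MCD diet, and before PH they were already higher on the MCD diet than on chow. The 140 bases before their RefSeq start sites are printed because these are the 3 mitosis genes that passed the threshold and the promoters of all 3 hold CCAAT. Sequences are from RefSeq on GRCm38.p6, on the gene's strand, and capitals mark the letters CCAAT and both forms of the homology region, searched on either strand.
Ccnb1, minus strand of chr13:100786487-100786626: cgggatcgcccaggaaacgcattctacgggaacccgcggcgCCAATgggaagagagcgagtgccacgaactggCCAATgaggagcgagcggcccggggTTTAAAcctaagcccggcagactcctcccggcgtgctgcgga
Ccnb2, minus strand of chr9:70421555-70421694: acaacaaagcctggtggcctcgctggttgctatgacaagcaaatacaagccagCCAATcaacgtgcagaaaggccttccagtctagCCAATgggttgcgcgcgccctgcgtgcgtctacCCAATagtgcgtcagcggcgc
Cdc20, minus strand of chr4:118437344-118437483: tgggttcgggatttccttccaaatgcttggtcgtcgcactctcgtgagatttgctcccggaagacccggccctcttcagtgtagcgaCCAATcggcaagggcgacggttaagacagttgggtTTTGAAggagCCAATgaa
Ccnb1 holds CCAAT 99 and 67 bases before the start and TTTAAA 42 bases before it. Ccnb2 holds CCAAT at 87, 54 and 21 bases, with neither form of the other motif in this window. Cdc20 holds CCAAT at 53 and 8 bases and TTTGAA at 18 bases, and no motif overlaps another in the 3 windows. In the 250 bases before the start, CCAAT occurred in 15 of the 19 tested mitosis genes with an entry (78.9%) and in 9314 of 27025 genes (34.5%). TTTGAA occurred in 7 (36.8%) against 16.3% of all genes and TTTAAA in 4 (21.1%) against 12.1%. CCAAT together with either of them occurred in 10 (52.6%) against 9% of all genes. These are matches of letters and not measured binding sites.

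Ccnb1 levels in C+Fc-GLP-1 livers were -4.01, -3.72, -3.76 and -5.87 before PH and -2.22, -0.14, 0.23 and -1.56 after PH. In M+Fc-GLP-1 livers they were -0.09, -1.84, -3.68 and -0.6 before PH and -4.79, -3.06, -3.79 and -2.19 after PH. On chow every array after PH lay above every array before PH, whereas on the MCD diet the times overlapped through replicate 3 before PH, which lay near the chow level. The change was 3.42 on chow (SE 0.73, 10.7-fold, adjusted p = 0.0269) and -1.91 on the MCD diet (SE 0.73, adjusted p = 0.176), which gave an interaction of -5.32 (SE 1.03, adjusted p = 0.0322). This probe was well above background on 3 of 4 arrays in C+Fc-GLP-1 livers before PH and in M+Fc-GLP-1 livers after PH. A second, dimmer Ccnb1 probe gave -3.27. Compared between diets, Ccnb1 was 6.9-fold higher on MCD before PH (adjusted p = 0.0122) and 5.8-fold lower after PH (adjusted p = 0.0188).

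Cdc20 levels on chow were -1.98, -1.21, -1.51 and -1.67 before PH and 0.13, 2.56, 2.99 and 0.81 after PH. M+Fc-GLP-1 livers had 2.26, 1.25, -1.44 and 1.48 before PH and -1.22, -1.11, -2.09 and 0.52 after PH. The same array, M+Fc-GLP-1 replicate 3 before PH, was the low value of its group, and the times did not overlap on chow. The rise on chow was 9.31-fold (adjusted p = 0.0312), the change on the MCD diet was -1.86 (adjusted p = 0.178) and the interaction was -5.08 (SE 1.01, adjusted p = 0.0432).

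Ccnb2 levels on chow were -0.87, -1.18, -1.31 and -0.73 before PH and 0.18, 1.66, 2.27 and -0.06 after PH. Those on MCD were at 1.85, 0.45, -0.69 and 1.17 before PH and -0.51, -0.64, -1.88 and 0.09 after PH. The chow times were again apart and the MCD times overlapped. The rise on chow was 4.1-fold (adjusted p = 0.0408), the change on the MCD diet was -1.43 (adjusted p = 0.134) and the interaction was -3.46 (SE 0.7, adjusted p = 0.0436). Before PH Ccnb2 was 3.29-fold higher on MCD than on chow (adjusted p = 0.0228), and after PH it was 3.36-fold lower (adjusted p = 0.017).

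Cenpp encodes a protein of the centromere, where chromosomes attach to the spindle. C+Fc-GLP-1 livers had it at -3.28, -3.43, -3.87 and -3.35 before PH, not well above background on any array, and -2.16, -1.59, -0.8 and -1.9 after PH. M+Fc-GLP-1 livers had -1.84, -1.55, -1.42 and -1.26 before PH and -1.77, -2.79, -2.24 and -2.82 after PH. The times were apart on chow and overlapped through 1 array on the MCD diet. Chow livers after PH were 3.66-fold above those before PH (means -1.61 and -3.48, adjusted p = 0.000815), a ratio to levels not well above background. M+Fc-GLP-1 livers before PH were 3.91-fold above C+Fc-GLP-1 livers before PH (mean -1.52, adjusted p = 1.3e-05), a ratio to the same dim levels. The change on the MCD diet was -0.89 (adjusted p = 0.0881), and the interaction of -2.76 (SE 0.39, adjusted p = 0.000747) rests in part on levels under background.

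Lockd is a long non-coding RNA made next to the cell cycle inhibitor gene Cdkn1b. Its levels on chow were -4.15, -3.95, -3.15 and -2.95 before PH and -1.31, 0.25, 0.96 and -1.62 after PH. The MCD livers had -0.88, -1.24, -3.98 and -1.03 before PH and -3.82, -3.09, -3.81 and -2.04 after PH, so that replicate 3 before PH lay below all livers after PH and the other 3 above them. The rise on chow was 8.67-fold (adjusted p = 0.0236) and the interaction was -4.52 (SE 0.92, adjusted p = 0.0436). Lockd was well above background on 2 of 4 C+Fc-GLP-1 arrays before PH and on 3 of 4 M+Fc-GLP-1 arrays at each time, so both sizes rest in part on dim signals.

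**Figure D1:**
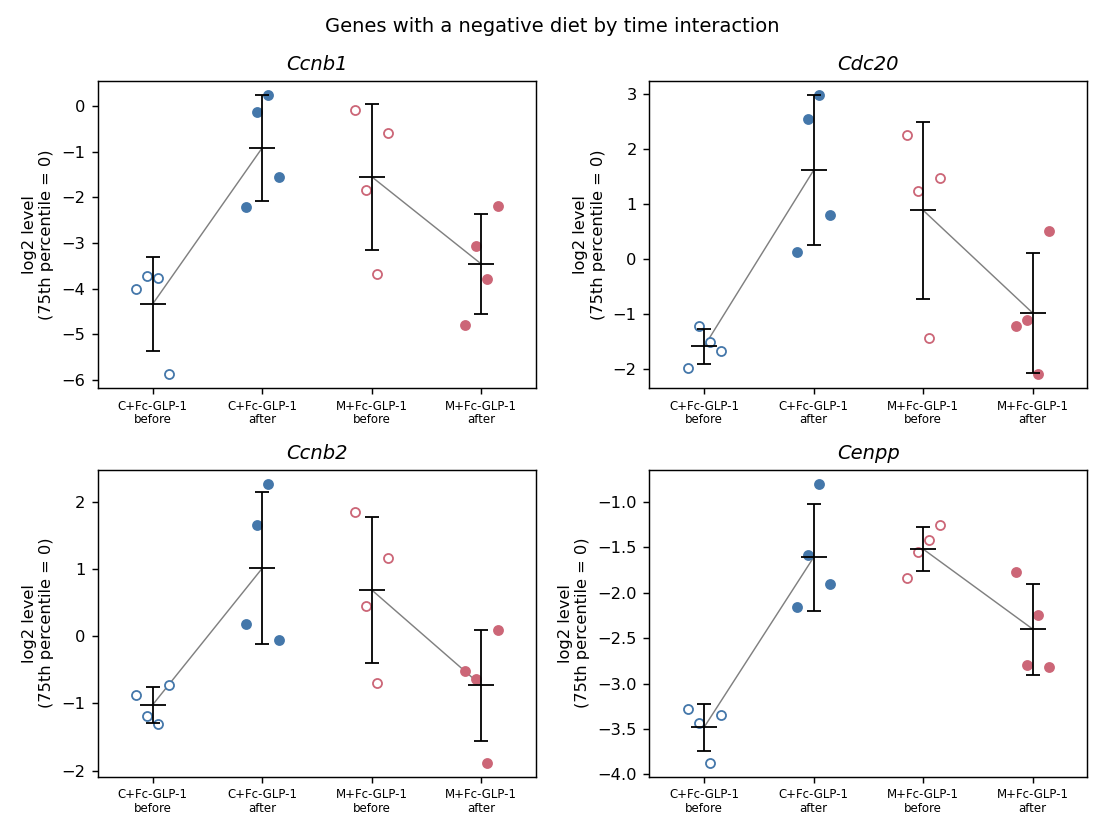
Log2 levels of Ccnb1, Cdc20, Ccnb2 and Cenpp (vertical axes, 75th percentile of the array = 0) in each of the 16 treated livers by group (horizontal axes), with open points before PH, filled points after PH, and black bars for the mean and SD of 4 arrays. Grey lines join the group means of a diet, which go up on chow and down on the MCD diet in all 4 genes, and in Ccnb1, Cdc20 and Ccnb2 a single M+Fc-GLP-1 array before PH lies near the chow level.

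Of the 30 genes of the mitosis list, 24 passed the filter on dim probes. Their interactions ran from -5.32 to -0.12 with a median of -3.14, as against -0.03 over all genes. Of the 24, 24 were negative, as against 52.1% of all genes. Of these, 3 were called lower and 21 had an unadjusted p under 0.05, as against 0.0476% and 5.8% of all genes. Without the filter 30 of 30 members were negative. In 8 of the 24 a group had no array well above background, in each case C+Fc-GLP-1 before PH. In Top2a, Kif11 and Nuf2 this held for M+Fc-GLP-1 before PH as well. The other 16 had a median of -3.36. Among the 8, Kif11, Cdk1, Bub1b and Kif4 were well above background on all 4 arrays of no treated group. They passed the filter through untreated MCD livers before PH, so their interactions rest on dim signals. Pbk, among these 8, was at -4.18 (adjusted p = 0.154), a value that rests on levels under background before PH on chow. Other members were Prc1, which bundles the central spindle, at -3.93 (adjusted p = 0.109), Plk1, a mitotic kinase, at -3.47 (adjusted p = 0.123) and Foxm1, the factor that drives late cell cycle genes, at -2.64 (adjusted p = 0.212). The proliferation marker Mki67 was at -1.51 (adjusted p = 0.562) and the centromeric histone Cenpa at -0.12 (adjusted p = 0.962).

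The list mean of each array shows which livers carried this pattern. Relative to the mean of each gene over the 16 arrays, the 24 genes averaged -1.13, -1.21, -1.05 and -1.06 in C+Fc-GLP-1 livers before PH and 0.44, 1.51, 2.23 and 0.54 after PH. In M+Fc-GLP-1 livers they averaged 1.2, 0.6, -1.14 and 0.71 before PH and -0.79, -0.41, -0.91 and 0.48 after PH. The chow groups did not overlap. On the MCD diet 3 livers before PH were above all 4 after PH, and replicate 3 was below them all. In the change after PH on chow 8 members were called, all higher (0.481% of all genes), with a median of 2.25, whereas on the MCD diet 0 were called, with a median of -0.84. Between diets, 6 members were called before PH, all higher on MCD (median 1.36, as against 5.34% of all genes called higher), and 9 after PH, all lower on MCD (median -1.58, as against 6.62%). Genes of DNA replication, the step before mitosis, gave a median of -0.27 over 28 tested members, with 19 negative, 9 positive and 0 called.

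The mitosis calls depended on single arrays and on the processing. Without M+Fc-GLP-1 replicate 3 before PH, 8 members were called lower and the list median was -3.71. When replicate 4 of M+Fc-GLP-1 after PH was left out 4 were called. A count of 1 was left without C+Fc-GLP-1 replicates 1, 2 or 3 or M+Fc-GLP-1 replicate 2 before PH. Without C+Fc-GLP-1 replicate 4 before PH, replicates 2 or 3 after PH, M+Fc-GLP-1 replicates 1 or 4 before PH, or replicates 1, 2 or 3 after PH, 0 were called, with medians between -3.25 and -2.74. No member was called with normexp and quantile normalization, median centring, the authors' values, the 16 arrays alone or no filter, and with normexp Ccnb1 was at -2.61 (adjusted p = 0.244) and the list median at -1.61.

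Markers of other cells were compared over the same groups as sums of linear signals, with the 75th percentile of an array set to 1. Of 11 red cell precursor genes with a probe, 7 were well above background on all 16 arrays and 2 on none. The 8 tested ones summed to between 293 and 896 in C+Fc-GLP-1 livers before PH and 341 and 644 after PH, and to between 264 and 1220 in M+Fc-GLP-1 livers before PH and 236 and 464 after PH. The 18 T and NK cell genes summed to between 44.2 and 65.5 before PH and 43.3 and 73.8 after PH on chow, and 26 and 62.2 before PH and 21.1 and 42.8 after PH on the MCD diet. The 17 Kupffer cell genes summed to between 110 and 185 before PH and 236 and 479 after PH on chow, and 89.4 and 166 before PH and 237 and 309 after PH on the MCD diet. Their part in the mitotic pattern was not tested.

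**Figure D2:**
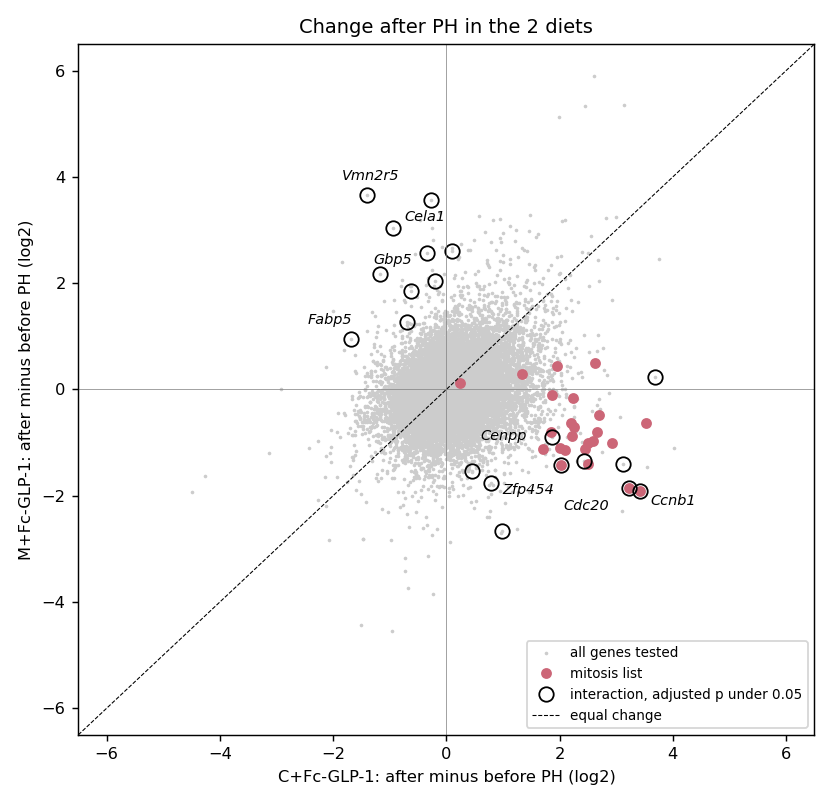
Change after PH on the log2 scale in C+Fc-GLP-1 (horizontal axis) and M+Fc-GLP-1 livers (vertical axis) for the 21012 genes tested, with the mitosis list in red, the 20 genes past the threshold for the interaction circled and the dashed line marking equal change. The mitosis genes lie to the right and below the line, with a median of 2.25 on chow and -0.84 on the MCD diet, and the genes called higher lie above it.

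Zfp454, a zinc finger protein, and BC065397 also had negative interactions but moved otherwise. Zfp454 levels on chow were -2.82, -2.11, -2.02 and -2.34 before PH and -1.91, -1.45, -1.48 and -1.3 after PH. M+Fc-GLP-1 livers had -2.26, -1.52, -1.3 and -1.8 before PH and -3.57, -3.35, -4.26 and -2.75 after PH. The last 4 were below all others except 1 chow liver before PH, and 2 of them were well above background. The gene fell 3.4-fold on the MCD diet (adjusted p = 0.00551), with a change of 0.79 on chow (adjusted p = 0.266) and an interaction of -2.55 (SE 0.49, adjusted p = 0.0321).

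BC065397 levels on chow were -1.95, -2.34, -2.45 and -2.96 before PH and -1.97, -1.65, -1.66 and -2.59 after PH. On the MCD diet they were -1.24, -1.01, -1.14 and -0.77 before PH and -3.5, -2.64, -1.74 and -2.42 after PH, without overlap between the times. It fell 2.9-fold on the MCD diet (adjusted p = 0.00437) and the interaction was -2 (SE 0.41, adjusted p = 0.0457), with -1.01 at a second probe.

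Among the genes with a positive interaction, Cela1 had the smallest adjusted p of all genes tested. It encodes a chymotrypsin-like elastase, a protease known from the exocrine pancreas. Levels on chow were -2.22, -2.27, -0.77 and -1.65 before PH and -2.41, -2.92, -2 and -3.35 after PH. M+Fc-GLP-1 livers were at -2.94, -3.4, -4.8 and -3.21 before PH and -0.99, -0.22, -0.94 and -0.06 after PH. The MCD times were far apart, with the highest group mean after PH and the lowest before it, when 2 arrays were well above background, and the chow times overlapped. Cela1 rose 8.17-fold after PH on the MCD diet (change 3.03, SE 0.37, adjusted p = 3.65e-05), with a change of -0.94 on chow (SE 0.37, adjusted p = 0.213) and an interaction of 3.97 (SE 0.52, adjusted p = 0.000439).

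Other markers of the exocrine pancreas were set beside Cela1. Of the 12 markers with a probe, 2 were well above background on all 16 arrays and 3 on none. The 5 other tested members had interactions between -0.5 and 0.56, none called, and their summed signal ran from 6.79 to 7.94 and 6.96 to 14.6 on chow before and after PH, and from 7.42 to 12.3 and 7.21 to 17.4 on the MCD diet. Cela2a, another elastase, was well above background on 0 and 1 arrays of the MCD groups, with means of -4.52 ± 0.73 before and -4.57 ± 0.79 after PH on the MCD diet, at an interaction of 0.56.

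Gbp5 is a guanylate-binding protein induced by interferon. C+Fc-GLP-1 livers had it at 0.88, 0.97, 1.42 and 0.93 before PH and 0.5, 0.33, 0.81 and 1.22 after PH. With the MCD diet the levels were 1.38, 1.17, 1.76 and 1.5 before PH and 4.9, 5, 3.86 and 2.26 after PH. All 4 M+Fc-GLP-1 livers after PH stood above the other 12, with a wide spread among them, and the call was lost without C+Fc-GLP-1 or M+Fc-GLP-1 replicate 2 after PH. The gene rose 5.88-fold on the MCD diet (adjusted p = 0.000284), with a change of -0.34 on chow (adjusted p = 0.709) and an interaction of 2.89 (SE 0.52, adjusted p = 0.0186). A second, dimmer Gbp5 probe gave an interaction of -0.65 (SE 0.69) with means from -2.55 to -2.03 in the 4 groups, so the 2 probes disagreed, and the mean over both gave 1.12 (adjusted p = 0.474). The 28 tested interferon-stimulated genes of the list had a median interaction of -0.01, with 14 positive, 14 negative and 0 called, and ran from -0.24 without the after-PH replicate 2 of M+Fc-GLP-1 to 0.14 without M+Fc-GLP-1 replicate 1 before PH.

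Vmn2r5 and Vmn2r3 are vomeronasal receptors, a family of pheromone receptors with many near-identical copies, so that a probe can take signal from a relative and the gene names are uncertain. Vmn2r5 levels on chow were -5.11, -5.17, -4.85 and -3.46 before PH and -4.46, -7.36, -6.32 and -6.05 after PH, near or under background. Under MCD feeding they were -4.98, -3.99, -3.45 and -5.24 before PH, all under background, and -1.15, 1.33, -1.31 and -1.87 after PH, all above it. M+Fc-GLP-1 livers after PH were at least 9.14-fold above those before PH (means -0.75 and -4.41, adjusted p = 0.000424). For this bound a level before PH was set no lower than the lowest signal well above background on its array. The interaction of 5.06 (SE 0.78, adjusted p = 0.00319) rests in part on levels under background.

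Vmn2r3 levels on chow were -1.82, -2.61, -1.88 and -3.7 before PH and -2.2, -2.35, -2 and -3.09 after PH. On the MCD diet they were -1.48, -0.89, -0.83 and -1.47 before PH and 1.11, 2.3, 1 and 1.37 after PH, above all other treated livers. The gene rose 6.12-fold on the MCD diet (adjusted p = 5.86e-05), with a change of 0.09 on chow (adjusted p = 0.929) and an interaction of 2.52 (SE 0.47, adjusted p = 0.032). A second probe gave 5.17, which rests in part on levels under background. It was well above background on 0 of 4 chow arrays at either time and on 2 of 4 M+Fc-GLP-1 arrays before PH.

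Fabp5 carries fatty acids inside the cell and is high in lipid-laden macrophages. Its levels on chow were 7.44, 6.8, 8.23 and 8.18 before PH and 6.39, 5.69, 5.95 and 5.88 after PH. The M+Fc-GLP-1 levels were 3.87, 3.26, 3.25 and 2.87 before PH and 4.74, 4.82, 3.84 and 3.63 after PH. All livers on the MCD diet were below all livers on chow, and the diets came closer after PH. The difference fell from 20.4-fold before PH (adjusted p = 8.61e-09) to 3.29-fold after it (adjusted p = 0.00245), through a 3.22-fold decrease on chow (adjusted p = 0.0323) and a change of 0.95 on the MCD diet (adjusted p = 0.196). The interaction was 2.63 (SE 0.53, adjusted p = 0.0436). Recruited and lipid-associated macrophage genes had a list median of -0.22 over 16 tested genes, and Fabp5 was the 1 gene called. The median was 0.29 without the after-PH replicate 1 of C+Fc-GLP-1 and -0.68 without the after-PH replicate 4 of M+Fc-GLP-1, the arrays on which the list stood highest, at 1.68 and 1.64 relative to the mean of the 16.

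Il13ra1 is a subunit of the receptor for the cytokines IL-13 and IL-4. C+Fc-GLP-1 livers had it at -0.46, -0.25, 0.35 and 0.37 before PH and -0.68, -0.78, -0.78 and -0.22 after PH. In MCD-fed mice the levels were -1.73, -2.9, -2.15 and -2.41 before PH and 0.17, 0.14, -0.5 and -1.58 after PH. The 4 livers on the MCD diet before PH were the lowest of the 16. Il13ra1 was 4.92-fold lower on MCD than on chow before PH (adjusted p = 5.93e-05), differed by 0.17 after PH (adjusted p = 0.827) and rose 3.62-fold on the MCD diet (adjusted p = 0.00438), with an interaction of 2.47 (SE 0.5, adjusted p = 0.0436).

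Marveld3 is a membrane protein of tight junctions. Its levels on chow were -2.05, -1.34, -2.22 and -2.33 before PH and -1.97, -2.57, -2.13 and -2.08 after PH. Livers of MCD-fed mice had -2.28, -2.69, -1.26 and -1.91 before PH and -0.27, 0.53, -0.37 and 0.12 after PH, the 4 highest of the 16. The gene rose 4.11-fold on the MCD diet (adjusted p = 0.000162) and the interaction was 2.24 (SE 0.4, adjusted p = 0.0178). A second probe gave 0.82 (SE 0.57), and the mean over both gave 1.53 (adjusted p = 0.205).

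Cnot3 is a subunit of the CCR4-NOT complex, which shortens the poly(A) tails of mRNA. C+Fc-GLP-1 livers had it at -1.64, -1.43, -1.06 and -1.27 before PH and -2.26, -1.69, -2.49 and -1.75 after PH. On the MCD diet its levels were -2.74, -2.66, -2.56 and -2.97 before PH, with 1 array well above background, and -1.32, -1.3, -1.49 and -1.75 after PH. The order of the times was reversed between the diets without overlap in either. The rise on the MCD diet was 2.41-fold (adjusted p = 0.0174), the change on chow was -0.7 (adjusted p = 0.237) and the interaction was 1.97 (SE 0.4, adjusted p = 0.0441).

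**Figure D3:**
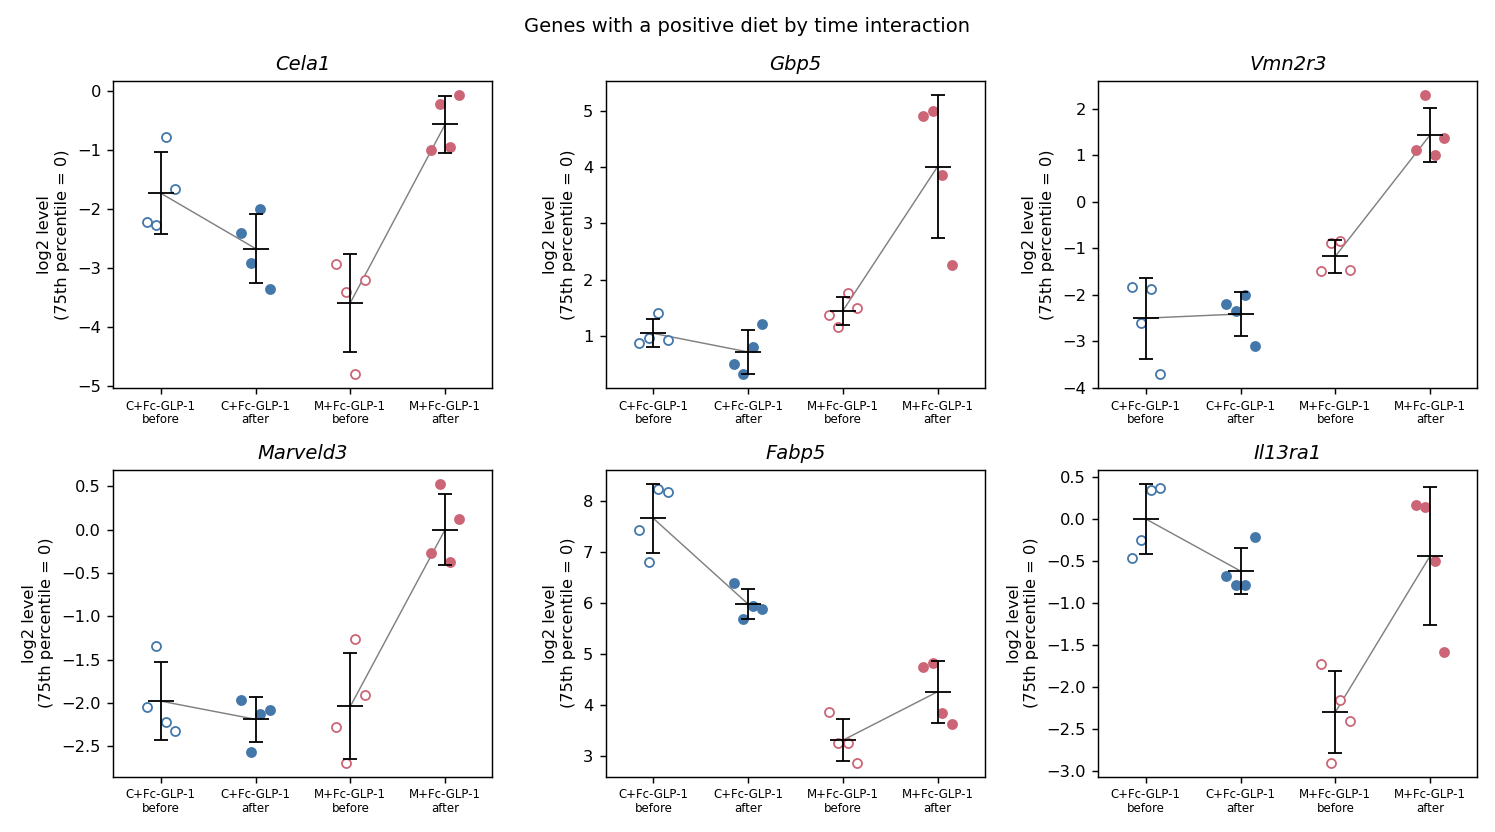
Log2 levels of Cela1, Gbp5, Vmn2r3, Marveld3, Fabp5 and Il13ra1 (vertical axes, 75th percentile of the array = 0) in each treated liver by group (horizontal axes), with open points before PH, filled points after PH, and black bars for the mean and SD of 4 arrays. Cela1, Gbp5, Vmn2r3 and Marveld3 have their highest mean in M+Fc-GLP-1 livers after PH, whereas in Fabp5 the diets come closer after PH and in Il13ra1 the MCD livers before PH are low.

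Cholesterol synthesis and uptake was the list with the lowest median after mitosis, at -0.72 over 23 tested genes, with 22 negative, 1 positive and 0 called. The median was -0.48 without the after-PH replicate 4 of M+Fc-GLP-1 and -1.02 without M+Fc-GLP-1 replicate 2 before PH. The list averaged 0.39, 0.21, 0.78 and 0.64 in C+Fc-GLP-1 livers before PH and 0.6, 0.67, 0.47 and 0.85 after PH, relative to the mean over the 16 arrays. In M+Fc-GLP-1 livers it averaged -0.43, -0.76, 0.2 and -0.13 before PH and -0.98, -0.4, -0.4 and -1.71 after PH. The diets did not overlap at either time, narrowly so before PH. Between diets 7 of the 23 were called lower on MCD before PH and 16 after PH, as against 5.02% and 6.62% of all genes. Tm7sf2, a sterol reductase, had the smallest p of the list, with an interaction of -1.36 (SE 0.51, adjusted p = 0.368) and differences between diets of -1.93 before PH (adjusted p = 0.000641) and -3.3 after PH (adjusted p = 4.34e-07).

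Genes of non-parenchymal cells gave smaller values. The 19 endothelial genes had a median of -0.56 with 16 negative, 3 positive and 0 called, led by Rspo3, a Wnt amplifier of the central vein, at -1.52 (SE 0.41, adjusted p = 0.151). The 18 T and NK cell genes had a median of -0.44 with 15 negative and 0 called, and Cd3g, part of the T cell receptor, was at -2.3 (SE 0.54, adjusted p = 0.0994) after a rise on chow (change 1.61, adjusted p = 0.0389) and a change of -0.69 on the MCD diet (adjusted p = 0.376). The 12 genes of MHC class II presentation had a median of -0.45 with 10 negative (-0.06 without the after-PH replicate 1 of C+Fc-GLP-1) and the 13 B and plasma cell genes -0.37 with 9 negative, none called in either. The 17 neutrophil genes had a median of 0.4 with 11 positive and 0 called, or -0.05 without the after-PH replicate 3 of M+Fc-GLP-1 and 0.91 without the after-PH replicate 1 of C+Fc-GLP-1, and 3 of them rose after PH on the MCD diet (0.823% of all genes). Their summed signal went from between 76.3 and 168 to between 91.6 and 420 on chow and from between 119 and 145 to between 277 and 680 on the MCD diet. Among these, Lcn2, an iron-trapping protein of neutrophils and injured hepatocytes, had a change of 5.33 on the MCD diet (adjusted p = 0.000737) and 2.45 on chow (adjusted p = 0.16), with an interaction of 2.88 (SE 1.22, adjusted p = 0.448). On the linear scale of the sums bright genes weigh most. Lcn2 was at 7.69, 9.21, 8.81 and 7.66 on the MCD diet after PH, as against 3.59, 3.16, 2.66 and 2.62 before PH. The sums therefore do not describe the neutrophil list as a whole, whose median change was 1.83 on the MCD diet and 1.24 on chow. The 17 Kupffer cell genes had a median of -0.18 and the 21 stellate cell genes -0.26, both with 0 called. The Kupffer median was 0.09 without the after-PH replicate 1 of C+Fc-GLP-1. With 1 array left out in turn, the medians of 15 of the 38 lists took both signs.

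Acute phase proteins, which hepatocytes secrete during inflammation, had a median of 0.36 over 24 tested genes, with 18 positive, 6 negative and 0 called. The list averaged between -0.83 and -0.21 in M+Fc-GLP-1 livers before PH and between -0.38 and 0.8 after PH, and between -0.27 and 0.43 and -0.12 and 0.71 in C+Fc-GLP-1 livers. Fga, a chain of fibrinogen, had the smallest p of the list at 1.27 (SE 0.48, adjusted p = 0.368). The 23 hepatocyte genes had a median of 0, with 11 positive, 12 negative and 0 called.

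**Figure D4:**
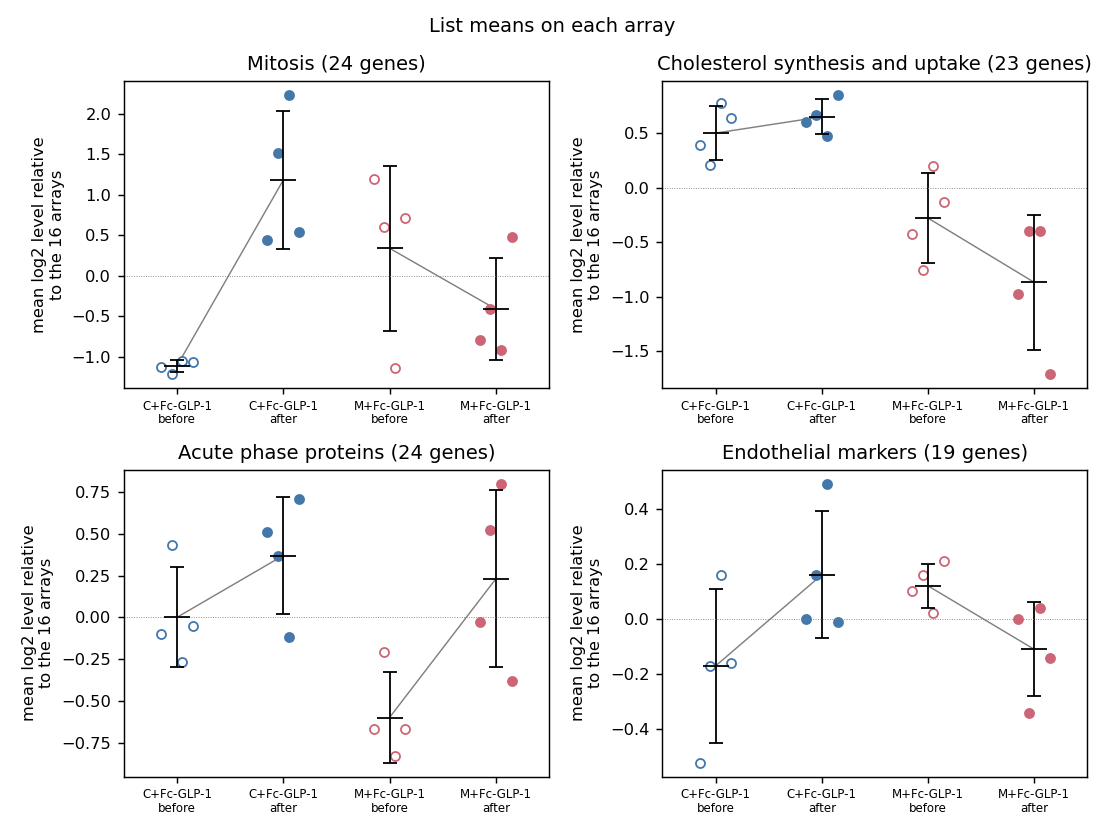
Mean log2 level of the tested genes of 4 lists on each treated array (vertical axes, each gene relative to its mean over the 16 arrays) by group (horizontal axes), with open points before PH, filled points after PH, and black bars for the mean and SD of 4 arrays. Mitosis goes from -1.11 to 1.18 on chow and from 0.34 to -0.41 on the MCD diet, and acute phase proteins go from -0.6 to 0.23 on the MCD diet.

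The 17 tested genes of a list made of genes whose hepatic mRNA the study names, with Glp1r added, had a median interaction of -0.17, with 6 positive, 11 negative and 0 called, and 0 had an unadjusted p under 0.05. Apart from Glp1r the list was chosen by the study on mice of the same groups and is no independent evidence. The neutrophil marker Ly6g had the smallest p at -0.76 (SE 0.41, adjusted p = 0.562), Fgf21, a hepatic hormone of nutrient stress, was at 1.28 (SE 0.76, adjusted p = 0.602) and Col1a1, the main collagen of scar, at -0.02 (SE 0.87, adjusted p = 0.999). Glp1r, the receptor of the drug, was well above background on 1 to 3 of the 4 arrays of each group, with means between -4.26 and -3.44, and at -0.6 (SE 0.73, adjusted p = 0.838).

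**Figure D5:**
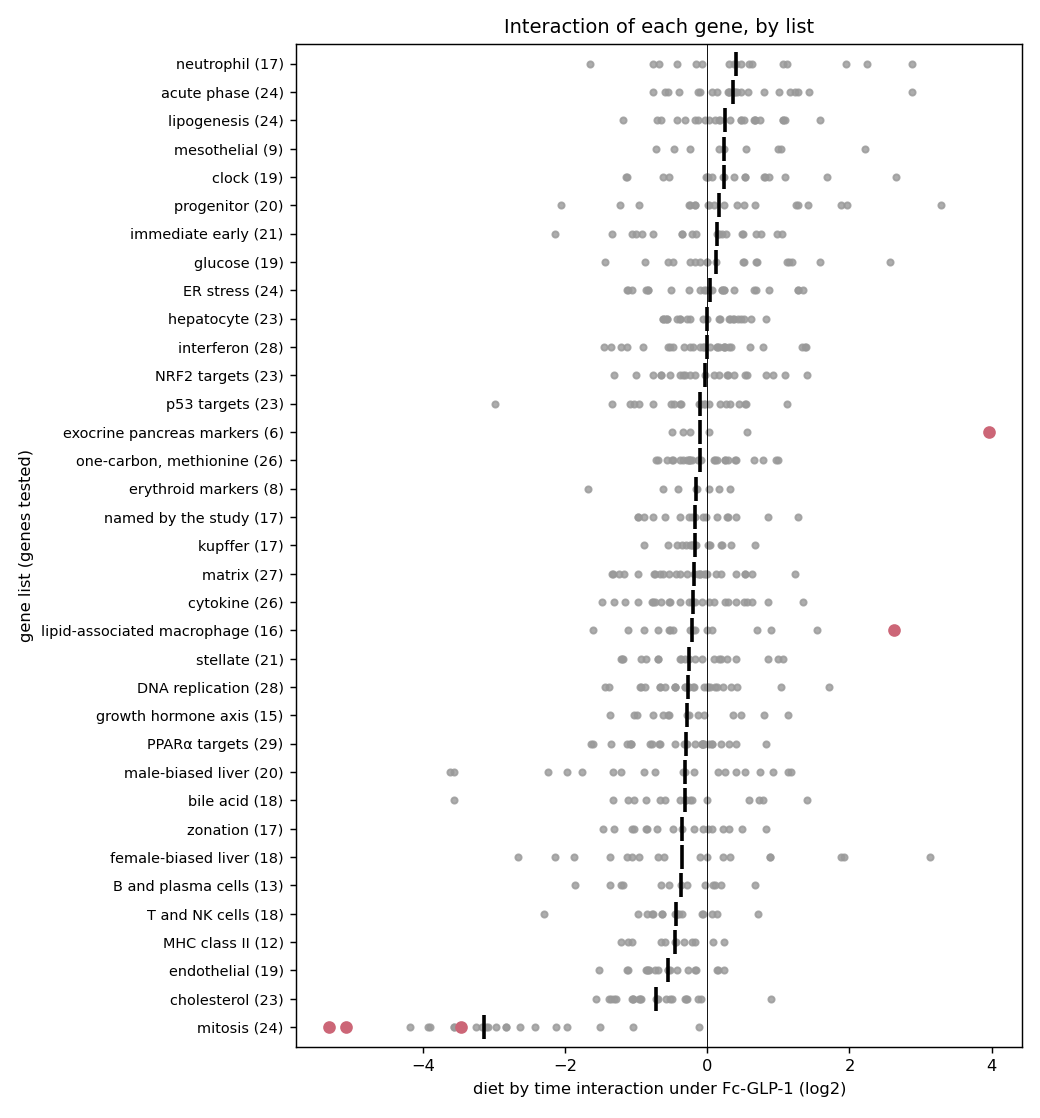
Interaction of each tested gene on the log2 scale (horizontal axis) by gene list (vertical axis, number of genes tested in parentheses), for the lists with at least 6 tested genes, with red points for genes past the threshold and black ticks for list medians. The mitosis list, with a median of -3.14, lies apart from the others, whose medians run from -0.72 to 0.4.

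The same difference of changes was then computed in the groups without the drug, which were C and MCD mice injected with saline, with 4 arrays for each diet and time. The question was whether the interaction differed with treatment. The difference between the interactions with and without Fc-GLP-1 passed the threshold in 0 of 21012 genes (0%), with 1993 at an unadjusted p under 0.05, and in 4 with the mean over the probes of a gene. It cannot be told apart from slide, since untreated C and MCD livers after PH lay on different slides, read on another scanner and day. For the mitotic genes the untreated interaction was also negative, at -4.32 for Ccnb1, -5.05 for Cdc20 and -2.8 for Ccnb2, and the differences were -1.01 (SE 1.45, adjusted p = 0.868), -0.03 (SE 1.42, adjusted p = 0.997) and -0.66 (SE 0.99, adjusted p = 0.873). Cela1 was at 3.23 in untreated livers, with a difference of 0.75 (SE 0.74, adjusted p = 0.781). In Vmn2r5 and Vmn2r3 the untreated values were -0.09 and -0.07, and the differences of 5.15 (SE 1.11, adjusted p = 0.17) and 2.59 (SE 0.67, adjusted p = 0.195) did not pass the threshold. Untreated C livers had Vmn2r5 well above background on 0 of 4 arrays at either time, so its untreated value and its difference rest on levels under background and are no measured sizes. Untreated MCD livers had Vmn2r5 at -0.28 ± 0.54 before PH and -0.76 ± 0.6 after PH, beside M+Fc-GLP-1 livers after PH at -0.75 ± 1.42. Gbp5 likewise was at 3.79 ± 0.34 and 4.63 ± 0.39 in untreated MCD livers, as against 1.45 ± 0.25 and 4.01 ± 1.27 in M+Fc-GLP-1 livers.

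The named genes differed in how far they rested on single arrays. Cela1, Cenpp and Vmn2r5 stayed past the threshold in all 16 fits with 1 array left out, Gbp5 and Marveld3 in 14, Vmn2r3 in 10, Ccnb1 in 8, Zfp454 in 7, Fabp5, Il13ra1 and BC065397 in 5, Cdc20, Lockd and Ccnb2 in 4 and Cnot3 in 3. In all of them the 15 genes kept their sign.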

How the data were processed

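Liver RNA was measured on 1-colour 60-mer arrays, and the 16 treated arrays are described here. Per the file headers, the deposited intensity values are the processed signals of Agilent Feature Extraction 10.7.3.1, background corrected and detrended within the array. The authors also deposited a table of normalized log2 values made with limma, which was used as an alternative. Its arrays before and after PH have medians of 6.54 and 6.88, so they had been normalized separately.

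From the intensities, log2 signals minus the 75th percentile of the array were computed, leaving out control spots and spots with outlier flags. A probe was kept if every array of some group, 4 of 4, had it well above background (28937 probes), and the brightest stood for each of 21012 genes. Probes were named through RefSeq where possible, the names of 24303 of 55681 probes being those of the files. The 8 group means were estimated in limma 3.58.1 (R 4.3.3, 24 residual degrees of freedom) with Benjamini-Hochberg adjustment. The procedure was also tested on simulated data.

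Genes were named if they were among the 12 largest calls in each direction with an official symbol and a probe well above background on all 4 arrays of a treated group, or led 1 of 38 gene lists. The arrays, lists and rules were chosen with earlier results of these data known. Lists are described by counts and medians. The alternatives were normexp (offset 50) with quantile normalization, median centring, the authors' values, no filter, the mean over probes, the 16 arrays alone, slide and replicate blocks, each array left out, and a fit without the 8 untreated arrays after PH, which was chosen after seeing the data. Proteins, metabolites and histology of the study were not analysed here.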

Additional observations from a re-analysis of the deposited data

Results flagged for a closer look

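The interaction is itself a difference between groups in the change after PH, and 15 named genes passed its test. Higher in the change after PH on the MCD diet than in that on chow were, on the log2 scale, Vmn2r5 at 5.06, Cela1 at 3.97, Gbp5 at 2.89, Fabp5 at 2.63, Vmn2r3 at 2.52, Il13ra1 at 2.47, Marveld3 at 2.24 and Cnot3 at 1.97. Lower in that change were Ccnb1 at -5.32, Cdc20 at -5.08, Lockd at -4.52, Ccnb2 at -3.46, Cenpp at -2.76, Zfp454 at -2.55 and BC065397 at -2.

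Among 60 groups of 4 arrays of these genes, 2 held an array far from the other 3, and about 1 group in 20 is expected to by chance. C+Fc-GLP-1 replicate 4 before PH had Ccnb1 at -5.87, and M+Fc-GLP-1 replicate 3 before PH had Lockd at -3.98. Without the first array 7 genes were called for the interaction and Ccnb1 was not among them, and without the second 36 were called, 10 higher and 26 lower.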

How the results depend on the processing

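The 20 calls of the interaction became 5 with the 16 arrays alone (19689 genes tested, 12 residual degrees of freedom). Slide as a block on these arrays describes the same 4 group means, so its 5 calls were fixed in advance and are no separate check. The calls became 6 (5 higher, 1 lower) with normexp and quantile normalization, 12 (10 higher, 2 lower) with median centring, which moves the median of all genes to 0.18, 9 (8 higher, 1 lower) with the authors' values and 7 (5 higher, 2 lower) without the filter. They were 18 with the mean over probes and 16 without the 8 untreated arrays after PH. With the replicate number as a block there were 19, of which 15 were among the 20. Same-numbered samples had a mean correlation of 0.0371, as against -0.0121 for other numbers, and 8 of 16 samples correlated best with their own number. These pairs joined times within a diet and also diets within a time, so they do not show whether livers came from the same mouse. Of the 20 genes, 4 were shared with the 16-array fit, 11 with median centring and 5 with the authors' values. The change after PH gave 606, 7199 and 918 calls on the MCD diet and 1317, 8052 and 705 on chow with normexp, the authors' values and no filter, and 68 on chow with the 16 arrays alone. The authors' tables were normalized apart for the 2 times, and an additive shift between them cancels in the interaction. Diet before PH gave 1426 and 1244 calls with normexp and the authors' values, and the comparison with untreated mice gave 4 with the mean over probes. With 1 array left out the interaction had 5 to 44 calls, the comparison with untreated mice 0 to 7, the change on chow 22 to 222 and on the MCD diet 160 to 401, and the diet difference 1527 to 2280 before and 1995 to 2712 after PH. All 15 named calls kept their sign under 25 alternatives, among which the slide block repeats the 16-array fit. Cela1 and Cenpp also stayed past the threshold in all of them. Tnni2 turned from -0.49 to 0.1 with normexp and 0.13 with the authors' values. The cause of these moves was not tested. Dim probes limit Vmn2r5, Cenpp and 8 of the mitosis genes, which were well above background on no array of some group.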

Other observations

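The other lists of metabolism had medians smaller in size than that of cholesterol synthesis and uptake. Single genes went further, such as Ppp1r3g among glucose genes at 2.57, which was not called. The 29 tested PPAR alpha target genes, of fatty acid oxidation, had a median of -0.3 with 22 negative and 0 called, while 19 of them were called higher on MCD before PH and 14 after PH, as against 5.34% and 6.19% of all genes. Acot4, an acyl-CoA thioesterase of peroxisomes, was at -1.09 (SE 0.47, adjusted p = 0.455), with differences between diets of 2.8 before PH (adjusted p = 9.89e-07) and 1.71 after PH (adjusted p = 0.000683). Fatty acid and triglyceride synthesis had a median of 0.25 over 24 genes and glucose metabolism 0.12 over 19, and Pklr, the liver pyruvate kinase, had the smallest p of both at 1.58 (SE 0.54, adjusted p = 0.315). Bile acid genes had a median of -0.32 over 18, with 14 negative. They ran from Slco1a1 at -3.57 to the efflux pump Abcc4 at 1.4 (SE 0.58, adjusted p = 0.434), which had the smallest p. Genes of the methionine cycle and choline, the nutrients the diet lacks, had a median of -0.11 over 26, with Dmgdh at -0.72 (SE 0.34, adjusted p = 0.502). Antioxidant genes had a median of -0.03 over 23, with Gclc at -1.31 (SE 0.48, adjusted p = 0.346), and ER stress genes 0.04 over 24, with Pdia4 at -1.12 (SE 0.41, adjusted p = 0.35).

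Genes that differ between male and female mouse liver had medians of -0.32 over 20 male-biased and -0.36 over 18 female-biased genes. Between diets, 15 male-biased genes were called lower on MCD before PH and 16 after PH, as against 5.02% and 6.62% of all genes, and 13 female-biased genes were called higher at each time, as against 5.34% and 6.19%, in livers that were all from males. Cyp17a1, a steroid hydroxylase, fell after PH on the MCD diet (change -2.22, adjusted p = 0.000632) with a change of -0.07 on chow (adjusted p = 0.946) and an interaction of -2.14 (SE 0.49, adjusted p = 0.0968). Susd4 was at -2.24 (SE 0.77, adjusted p = 0.317). Growth hormone axis genes had a median of -0.28 over 15, with Prlr at -1.03 (SE 0.45, adjusted p = 0.46).

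Clock genes had a median of 0.24 over 19. Between diets, 11 of them were called higher and 3 lower on MCD before PH, as against 5.34% and 5.02% of all genes. After PH 10 were called higher and 2 lower, as against 6.19% and 6.62%, and the median difference was 1.52 at both times. Rgs16, an output of the clock, fell after PH on chow (change -4.27, adjusted p = 0.000135), with -1.63 on the MCD diet (adjusted p = 0.107) and an interaction of 2.65 (SE 0.75, adjusted p = 0.192). Immediate early genes had a median of 0.14 over 21 (Klf6 at -2.14, adjusted p = 0.36), zonation genes -0.36 over 17 (Nkd1 at -1.32, adjusted p = 0.348) and fetal and progenitor genes 0.17 over 20 (Afp at 1.25, adjusted p = 0.377), or -0.31 without the after-PH replicate 4 of M+Fc-GLP-1, on which the list stood at 2.38, and 0.58 without replicate 3. Growth arrest and p53 target genes had a median of -0.1 over 23, and Cdkn3, a phosphatase of the cell cycle, was at -2.99 (SE 0.82, adjusted p = 0.158). Matrix genes had a median of -0.19 over 27 (Col4a2 at 1.23, adjusted p = 0.408) and cytokine genes -0.2 over 26 (Cxcr3 at -1.32, adjusted p = 0.299). Mesothelial genes had a median of 0.24 over 9, which was -0.2 without C+Fc-GLP-1 replicate 3 before PH and 0.93 without the after-PH replicate 1 of C+Fc-GLP-1, the array with the highest list mean at 2.15. Their summed signal went from between 1.65 and 4.58 to between 8.39 and 25.9 on the MCD diet and from between 1.1 and 3.1 to between 3.11 and 30.6 on chow. Msln, the mesothelial surface protein mesothelin, was at least 26.7-fold higher after than before PH on the MCD diet (means 0.91 and -4.44, adjusted p = 0.000737), with an interaction of 2.22 (SE 1.21, adjusted p = 0.57). In all of these lists 0 genes were called for the interaction. The sign of further medians also turned with 1 array left out, for matrix genes to 0.07 and for glucose genes to -0.03 without the after-PH replicate 1 of C+Fc-GLP-1, for immediate early genes to -0.18 without the after-PH replicate 4 of C+Fc-GLP-1, for ER stress genes to -0.11 without M+Fc-GLP-1 replicate 1 before PH, for antioxidant genes to 0.12 without M+Fc-GLP-1 replicate 2 before PH and for methionine cycle genes to 0.04 without the after-PH replicate 3 of C+Fc-GLP-1.

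Markers of other tissues had medians of -0.16 over 8 red cell precursor genes, -0.11 over 6 pancreatic, -0.59 over 3 adipocyte and -0.36 over 3 gut genes, and the 1 tested muscle gene, Tnni2, was at -0.49. Of these Cela1 alone was called. The red cell median was 0.15 without M+Fc-GLP-1 replicate 2 before PH, and the pancreatic one was 0.05 without the after-PH replicate 4 of M+Fc-GLP-1. Among DNA replication genes Rfc3 had the smallest p at 1.71 (SE 0.52, adjusted p = 0.238). The smallest p of the remaining lists belonged to Folr2 at 0.67 among Kupffer cell genes, Pdgfra at -1.2 among stellate cell genes, Cd22 at -0.65 among B cell genes, H2-Oa at -1.22 among MHC class II genes, Oas1a at -1.45 among interferon genes and Cebpa at 0.61 among hepatocyte genes, none past the threshold.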
